A study of Mus musculus with 2 samples.

Results

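Gcg, Pyy, Insl5 and Nts encode the peptide hormones of the L and N cells of the gut, and their transcripts were followed here in single epithelial cells of mouse small intestine. The members were chosen by a rule on gene symbols that used no measured value, and are 4 of the 32285 genes counted. Earlier results of these data were known when the choice was made. All 4 had UMIs in both libraries, and no filter on low values removed any of them. A UMI, or unique molecular identifier, marks 1 captured transcript molecule. Levels are in CPM: UMIs of the gene for every 1000000 UMIs of all genes, both summed over the cells in question.

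Enteroendocrine cells are the hormone-secreting cells of the gut epithelium and arise from progenitors that transiently express the transcription factor Neurog3. L cells cut proglucagon, the product of Gcg, with the convertase Pcsk1 to release GLP-1 and GLP-2, and many of them also make peptide YY (Pyy), which slows transit and reduces appetite. Insulin-like peptide 5 (Insl5) is a relaxin-family hormone best known from L cells of the distal gut, and neurotensin (Nts) is the hormone of N cells, which are most frequent in the ileum and are known for promoting the uptake of fat. L and N cells are regarded as related, since the same cell can carry transcripts of both. Alpha cells of the pancreas make glucagon from the same Gcg transcript with another convertase, Pcsk2.

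WT mice carried Neurog3Cre and Rosa26tdtomato, a reporter that Cre turns on for good, so that a red (Tomato-positive) cell is a descendant of a cell in which the Neurog3-driven Cre had acted. Mice of the library labelled NFKO (Neurog3Cre-FoxO1 f/f; Rosa26tdtomato) bore floxed FoxO1 alleles besides, and both groups shared the Cre and the reporter. Each library was made from Tomato-positive cells sorted from the whole small intestine of 4 to 5 pooled mice, aged 4 to 6 weeks, with the pancreas dissected away, so neither the mouse nor the gut segment of a cell is known. The comparison asks how the L and N cell hormones stood with and without FoxO1 in this lineage. There was 1 library per group, hence no test, and all intervals are 95% intervals that cover counting error only.

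The filters left 3003 WT cells, with a median of 16883 UMIs, and 5292 cells with a median of 17035 UMIs in the library labelled NFKO. Of the deposited barcodes 6 occurred in both libraries, 4 of them among the kept cells. The libraries differed in sex: of the cells that could be typed by Xist and Y-linked transcripts, WT held 1802 male and 0 female cells and the other library 274 male and 4119 female cells, so that sex and genotype cannot be told apart outside the male-typed cells. The targeted gene was looked at as a check of the labels. Foxo1 stood at 25.5 CPM in WT enteroendocrine-like cells and at 22.2 CPM in those of the library labelled NFKO, whose ratio to WT was 0.870 (0.755 to 1.01). Over all kept cells it was 1.07 (0.987 to 1.17), within counting error of no difference. Among the hormone cells defined further on, it was 0.726 (0.549 to 0.961) in Gcg-high, 0.621 (0.451 to 0.861) in Pyy-high and 0.598 (0.346 to 1.07) in Nts-high cells, on 19 to 108 UMIs each. The libraries were made with a 3′ kit, and its counts do not show whether the floxed part of the transcript was present. They can therefore not settle the label. The paper itself reports a significant fall of FoxO1 expression in Tomato-positive cells sorted from NFKO mice. Since the label could not be checked here, the name "the library labelled NFKO" is kept throughout.

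Cells were clustered without the 4 hormone genes, so that hormone levels could be compared between clusters that they had not helped to draw. Clusters 2, 4, 6, 7, 10, 18, 19, 20 and 22 were named enteroendocrine-like from pan-endocrine markers and held 887 cells of the WT library and 1889 of the other. Clusters 18 and 19 were led by Sst with Iapp and by Ppy with Pyy, and had a gene of the islet list among their 10 leading genes. They had no pan-endocrine marker there, which held also for clusters 2, 6, 7, 10, 20 and 22. Clusters 18 and 19 passed 5 and 7 pan-endocrine markers, beside 4 in cluster 22 to 8 in cluster 6. Because of the islet-list genes, values are given by cluster number before the sum over the class. The sum is given also without clusters 18 and 19. Cluster 13 carried endocrine transcripts but was shallow, with a median of 3268 UMIs, and stayed unnamed.

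All 4 genes lie on minus strands of GRCm38 and are protein coding, and no other annotated gene overlaps them. Gcg (ENSMUSG00000000394) spans 62474530 to 62483650 of chromosome 2, and Pyy (ENSMUSG00000017311) spans 102106676 to 102107832 of chromosome 11. Insl5 (ENSMUSG00000066090) spans 103017872 to 103026842 of chromosome 4, and Nts (ENSMUSG00000019890) spans 102481756 to 102490486 of chromosome 10. The 250 bases before the RefSeq start sites of Gcg and Pyy, the members found together most often in 1 cell, are printed here 5′ to 3′ on the gene's strand (chr2:62483654-62483903 and chr11:102107833-102108082 of GRCm38), so that a reader can see what the promoters of this pair do and do not share in letters. Capitals mark exact matches, on either strand, to the letters TGTTTAC of a forkhead (FoxO-type) motif, CAGATG of an E-box as bound by Neurod1, or TATAAA.
Gcg: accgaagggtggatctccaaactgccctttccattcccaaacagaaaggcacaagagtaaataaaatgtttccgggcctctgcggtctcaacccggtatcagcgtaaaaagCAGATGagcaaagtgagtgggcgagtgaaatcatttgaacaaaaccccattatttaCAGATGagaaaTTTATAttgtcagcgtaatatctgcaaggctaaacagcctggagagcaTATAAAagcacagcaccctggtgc
Pyy: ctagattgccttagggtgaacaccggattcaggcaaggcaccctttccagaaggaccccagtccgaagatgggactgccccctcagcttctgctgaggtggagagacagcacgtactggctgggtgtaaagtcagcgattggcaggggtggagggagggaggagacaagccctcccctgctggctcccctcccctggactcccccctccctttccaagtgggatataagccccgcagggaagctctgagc

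Gcg had 2 E-box matches, 139 and 83 bases before its start, and 2 TATAAA matches, of which the one on the gene's own strand lay 24 bases before the start. Pyy had no match to any of the 3 motifs and a GC content of 61.2%, against 44.8% in Gcg and a median of 52.4% over the 32851 promoter entries. The window of Insl5 held 1 match to each motif, among them the only forkhead match of the 4 genes, 105 bases before the RefSeq start, and the window of Nts held none. Over all promoter entries 3.17% had the forkhead letters, 14.4% the E-box letters and 12.4% TATAAA within the same 250 bases. A match is a description of letters only, and none of the deposited measurements shows binding.

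Gcg, the proglucagon gene, was concentrated in cluster 7, which was also led by the transcription factor Etv1 and by Insl5. Cluster 7 held 192 cells in each library and had Gcg at 58041 CPM in WT and 46982 CPM in the library labelled NFKO. Cluster 19 followed with 13593 and 10241 CPM, then cluster 22, led by Cck, with 5930 and 4855 CPM. In these 3 clusters the library labelled NFKO lay below WT. In the Gip-led cluster 2, Gip being the hormone of K cells, Gcg was at 2308 CPM in WT and 776 CPM in the library labelled NFKO. Cluster 20 went the other way, with 229 CPM (157 to 323) in WT and 682 CPM (638 to 728) in the library labelled NFKO. So did clusters 4, 10 and 18 at low levels, with 20.8, 31.3 and 29.2 CPM in WT beside 49.0, 74.2 and 54.0 CPM, though in cluster 18 the counting intervals overlapped. Cluster 6 had 413 CPM in WT, where 2 of its 174 cells were Gcg-high, and 38.5 CPM in the other library, where none was.

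Summed over the enteroendocrine-like cells, Gcg was at 15344 CPM (15271 to 15418) in WT and 6354 CPM (6325 to 6383) in the library labelled NFKO, which makes a ratio of 0.414 (0.411 to 0.417). Without clusters 18 and 19 the ratio was 0.411. The sum differed more than any of clusters 7, 19 and 22 did on its own, and beside it the share of kept cells in cluster 7 was 6.39% (5.54% to 7.33%) in WT and 3.63% (3.14% to 4.17%) in the other library. Within the enteroendocrine-like cells that make up the sum, cluster 7 held 192 of 887 in WT and 192 of 1889 in the other library. In the cells typed as male the ratio of the sum was 0.175, resting on 105 male-typed enteroendocrine-like cells of the library labelled NFKO, 10 of them Gcg-high.

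Pyy, encoding peptide YY, peaked in another cluster. Cluster 19 carried it at 50675 CPM in WT and 63116 CPM in the library labelled NFKO, and cluster 7 at 10717 and 7485 CPM. Cluster 2 had 2145 and 3407 CPM. Gcg and Pyy thus had different leading clusters in both libraries, and Pyy was lower in the library labelled NFKO in cluster 7 and higher there in cluster 19. The widest gaps upward from WT were in clusters with little Pyy in WT. Cluster 18 had 318 CPM in WT, where 4 of its 36 cells were Pyy-high, and 4240 CPM in the library labelled NFKO, where 32 of 114 were. Cluster 20 had 93.0 CPM (49.5 to 159) and 1887 CPM, and cluster 10 had 24.3 CPM (9.77 to 50.1) and 848 CPM. Cluster 6 went the other way, with 1069 CPM in WT, where 1 cell was Pyy-high, and 33.5 CPM in the other library, where none was.

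The sum of Pyy over the enteroendocrine-like cells was 5486 CPM (5442 to 5530) in WT and 5977 CPM (5949 to 6005) in the library labelled NFKO, or 1.09 times the WT level (1.08 to 1.10). Without clusters 18 and 19 the ratio was 0.629. The near equality of the sums therefore joined clusters that lay on opposite sides, and cluster 19 alone gave 108392 of the 173750 Pyy UMIs in the library labelled NFKO and 23241 of the 59684 in WT.

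Nts, encoding neurotensin, peaked in cluster 20, which was led besides by the adhesion receptor Adgrd1. It stood at 62832 CPM in WT, in 35 cells, and at 193765 CPM in the library labelled NFKO, in 86 cells. The latter was the highest level of any of the 4 hormones in a cluster. The cells of this cluster differed in depth, with a median of 3572 UMIs for WT against 16902 for the other library, and only 3 of the WT cells reached 5000 UMIs. Those 3 had 136832 CPM together, against 197544 CPM in the 69 cells of that depth in the library labelled NFKO, so that the gap was smaller among deeper cells. Nts was at 12629 and 39794 CPM in cluster 19, at 13401 and 16824 CPM in cluster 7 and at 5403 and 10519 CPM in cluster 22. It was higher in the library labelled NFKO in each of these clusters, by the least in cluster 7.

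Over the enteroendocrine-like cells Nts summed to 4696 CPM (4655 to 4736) in WT and 13735 CPM (13692 to 13777) in the library labelled NFKO, with a ratio of 2.92 (2.90 to 2.95). The 3 WT cells with most Nts held 21.1% of the gene's UMIs in their library and the 3 of the library labelled NFKO 6.16%, and without these cells the ratio was 3.50. Each cell given the same weight, the ratio was 2.17, and in male-typed cells it was 5.50.

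Insl5 was the scarcest member, with 78 UMIs in WT enteroendocrine-like cells and 500 in the library labelled NFKO. It stood at 26.6 CPM (20.8 to 33.7) in cluster 7 of WT and at 144 CPM (131 to 158) in cluster 7 of the library labelled NFKO. Cluster 7 thus gave 70 of the 78 and 465 of the 500 UMIs. In cluster 20 no Insl5 UMI was seen in either library, which allows up to 21.5 CPM in WT and 2.30 CPM in the other library. The ratio of the class sums, 7.17 and 17.2 CPM, was 2.40 (1.89 to 3.09), and 3 cells in each library held at least 50% of all its Insl5 UMIs, so the ratio rests on very few cells. Without the 3 cells of each library with most Insl5 it was 1.81.

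**Figure D1:**
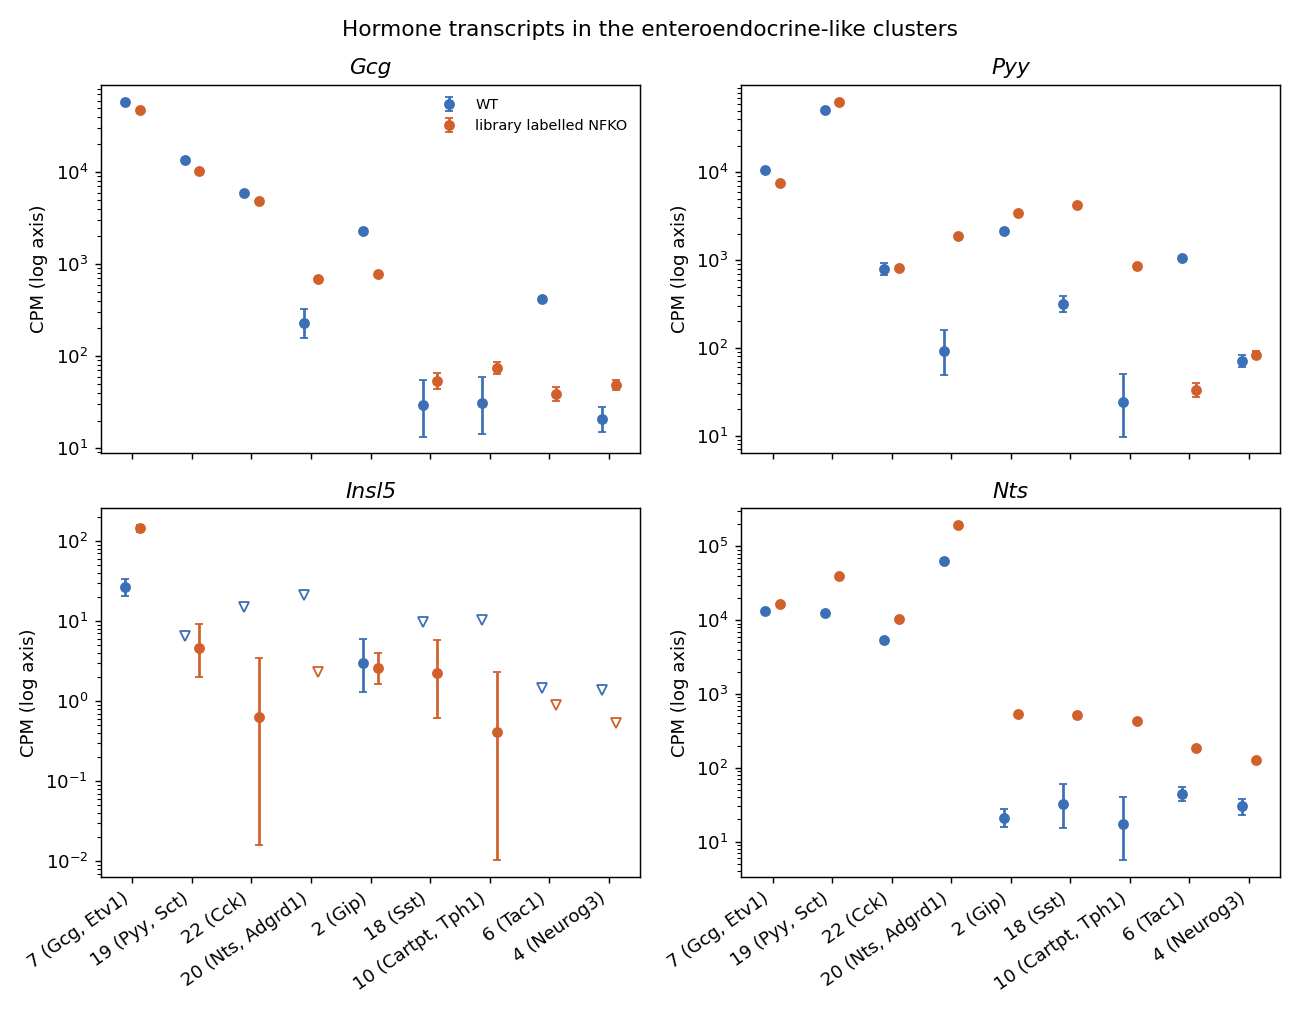
Levels of the 4 hormone transcripts in the enteroendocrine-like clusters, in CPM on a log axis, with clusters named by number and leading genes. Points are sums over the cells of a cluster in 1 library, bars are 95% Poisson intervals for counting error, and open triangles mark the limit that a count of 0 allows. Gcg and Insl5 were highest in cluster 7, Pyy in cluster 19 and Nts in cluster 20, in both libraries.

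Of 3583 genes with at least 50 CPM in either library's enteroendocrine-like cells, 2.74% were at least 1.5 times higher and 3.01% at least 1.5 times lower in the library labelled NFKO. Nts was among the higher and Gcg among the lower, Pyy was in neither group, and Insl5 lay under the level needed to enter. Of the lists, the other hormones had 4 of 8 genes higher (Gip 2.95-fold, Sct 2.16, Sst 2.38 and Iapp 5.62) and 1 lower (Tac1, 0.54), and the BMP response genes had 2 of 3 higher (Id1 1.81 and Id3 1.96). Of 19 transcription factors 2 were higher (Hhex 1.92 and Neurog3 1.55) and 1 lower (Etv1, 0.64). Among the processing genes 1 of 8 was higher (Scg5), among the receptors 1 of 5 (Cnr1), and of the regional genes and hormone receptors neither of the 2 measured in each list passed in either direction. Etv1 was thus lower together with Gcg in the library labelled NFKO.

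With the exon length taken into account, the order of the members in WT was Gcg (10271 CPM per kilobase), Pyy (8694), Nts (3763) and Insl5 (9.90). In the library labelled NFKO it was Nts (11005 CPM per kilobase), Pyy (9472), Gcg (4253) and Insl5 (23.8). Counts from a 3′ kit need not scale with length, and in the library labelled NFKO the order of Gcg and Pyy turned with it, since Gcg was the higher of them in CPM (6354 and 5977).

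A cell was called high for a hormone when it had at least 1000 CPM and at least 5 UMIs of it. Gcg-high cells were 241 of 887 enteroendocrine-like cells in WT, or 27.2% (24.3% to 30.2%), and 278 of 1889, or 14.7% (13.1% to 16.4%), in the library labelled NFKO, and the shares had a ratio of 0.542 (0.465 to 0.631). Pyy-high cells were 157 (17.7%) and 298 (15.8%), a ratio of 0.891 (0.747 to 1.06). Nts-high cells were 95 (10.7%) and 242 (12.8%), a ratio of 1.20 (0.957 to 1.496). At this threshold the interval excluded 1 for Gcg and included it for Pyy and Nts. This call depended on the setting: for Pyy the ratio was 0.719 (0.584 to 0.885) without clusters 18 and 19 and 0.792 (0.673 to 0.933) with the 99th percentile of the background cells as threshold. For Nts it was 1.397 (1.09 to 1.79) with the stricter cell filter, 1.66 (1.26 to 2.17) after thinning to 5000 UMIs, 1.89 (1.15 to 3.11) in male-typed cells and 1.29 (1.04 to 1.598) with cluster 13 counted in. With the percentile threshold the Nts ratio was 1.02 (0.819 to 1.28), and at 3000 CPM it was 1.15 (0.911 to 1.46). Each of these intervals included 1. Insl5-high cells were 2 and 6.

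The level within high cells spread widely. In WT the Gcg-high cells ran from 1002 to 200604 CPM around a median of 38582 CPM, and in the library labelled NFKO from 1047 to 217558 CPM around 23311 CPM. Pyy-high cells had medians of 10772 and 11271 CPM. Nts-high cells reached from 1197 to 265410 CPM in WT around a median of 40982 CPM, and from 1015 to 310664 CPM in the library labelled NFKO around 56167 CPM. At the top of these ranges 20.1% of a WT cell's UMIs were Gcg and 31.1% of the UMIs of a cell of the library labelled NFKO were Nts. For Gcg both the share of high cells and their median level were lower in the library labelled NFKO. For Nts the median level was higher there, and the interval of the share ratio at this threshold included 1. The median intervals overlapped, at 28091 to 46961 CPM in WT and 15531 to 33346 CPM in the other library for Gcg. For Nts they were 29804 to 50799 CPM and 42816 to 78049 CPM. With a threshold of 300 CPM the Nts medians stood the other way, at 38337 CPM in WT and 3518 CPM in the library labelled NFKO.

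Cells between 500 and 2000 CPM numbered 31 and 51 for Gcg and 38 and 98 for Pyy in WT and the library labelled NFKO. For Nts there were 9 such cells in the WT library against 140 in the other, so that its threshold fell in a sparse stretch in WT and in a populated one in the other library. With a threshold of 300 CPM the ratio of the Nts-high shares was 1.98 (1.62 to 2.43), against 1.20 at 1000 CPM and 1.15 (0.911 to 1.46) at 3000 CPM. Goblet-like, Paneth-like and enterocyte-like cells, the background cells, had a 99th percentile of Nts at 377 CPM in WT. In the library labelled NFKO it was 3045 CPM, so that 300 CPM lay near this limit in WT and far below it in the other library.

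The hormones were next examined together in single cells. In WT, 307 enteroendocrine-like cells were high for at least 1 of the 4. The commonest combination was Gcg with Pyy, in 114 cells (37.1%), followed by Gcg alone in 77, Nts alone in 41, Gcg with Nts in 32, Pyy alone in 19, Gcg with Pyy and Nts in 16, Pyy with Nts in 6 and Gcg with Pyy and Insl5 in 2. In the library labelled NFKO, 551 cells were high for at least 1, and the order was different. Nts alone had 112 cells (20.3%, 17.0% to 23.9%), Pyy alone 106 (16.0% to 22.8%) and Gcg with Pyy 99 (14.8% to 21.4%). Then came Gcg alone with 98, Pyy with Nts with 55 and Gcg with Nts with 43. Gcg with Pyy and Nts had 32, and Gcg with Pyy and Insl5 had 6. The intervals of the leading combinations overlapped. For Nts, 1000 CPM also lay below this library's background limit of 3045 CPM. With the percentile threshold 216 of its cells were Nts-high, against 242 at 1000 CPM. Whether Nts alone would still lead there was not tested. No cell was high for all 4, which by the exact binomial interval allows a share of up to 1.19% in WT and up to 0.667% in the other library.

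**Figure D2:**
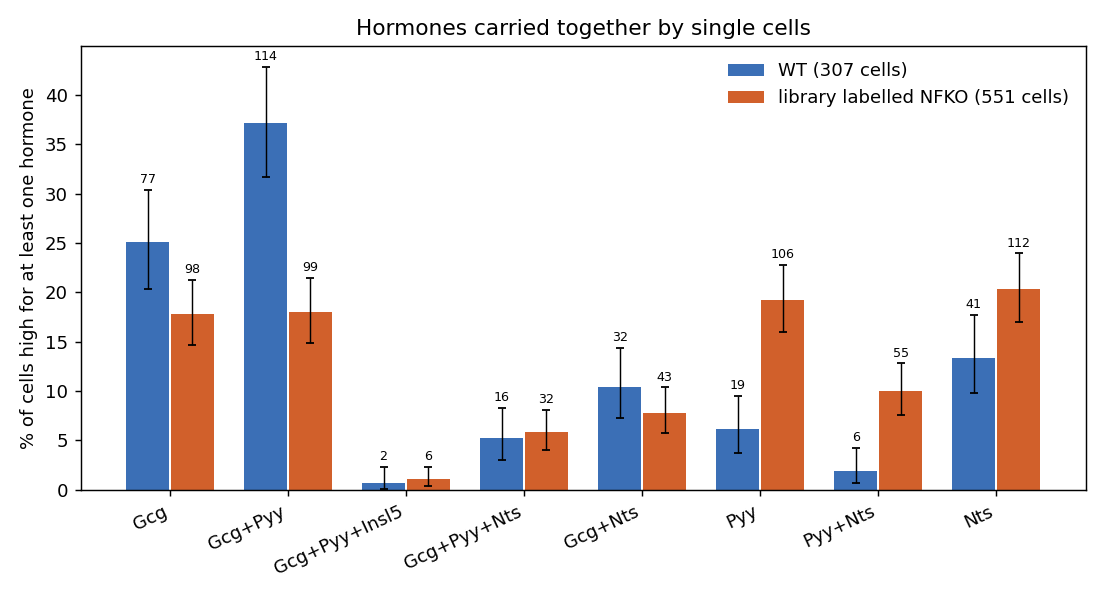
Enteroendocrine-like cells high for at least 1 of the 4 hormones, by the combination they carried, as a percentage of the 307 WT cells and the 551 cells of the library labelled NFKO. Bars start at 0, error bars are 95% Clopper-Pearson intervals and the numbers above them are cells. Gcg with Pyy was the commonest combination in WT, and cells with Pyy but not Gcg took a larger share in the library labelled NFKO.

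Gcg-high cells were Pyy-high in 132 of 241 cases in WT, 54.8% (48.3% to 61.2%), and in 137 of 278, 49.3% (43.3% to 55.3%), in the library labelled NFKO. Among enteroendocrine-like cells that were not Gcg-high the Pyy-high share was 3.87% in WT, against 9.99% in the other library. Read from the Pyy side the libraries stood further apart, since 84.1% (77.4% to 89.4%) of Pyy-high cells were Gcg-high in WT and 46.0% (40.2% to 51.8%) in the other library. Without clusters 18 and 19 these shares were 88.3% and 53.2%. The cells with Pyy and without Gcg came to 25 for WT and to 161 for the library labelled NFKO.

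Nts-high cells were Gcg-high in 48 of 95 cases in WT, 50.5% (40.1% to 60.9%), and in 75 of 242, 31.0% (25.2% to 37.2%), in the library labelled NFKO. They were Pyy-high in 22 of 95 cases, 23.2% (15.1% to 32.9%), and in 87 of 242, 36.0% (29.9% to 42.3%). Without clusters 18 and 19 the Gcg-high shares were 45.5% and 29.4%, and the Pyy-high shares were 10.4% and 15.8%, so that more of the cells high for both Nts and Pyy than of those high for both Nts and Gcg lay in these clusters. When cells were thinned to 5000 UMIs, which left out the shallow WT cells of cluster 20, the share of Nts-high cells that were Gcg-high was 75.4% in WT. In male-typed cells it was 68.8% in WT, against 16.7% of 18 cells in the other library.

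Depth and doublet scores were compared beside these combinations. Gcg-high cells with Pyy had a median of 13880 UMIs in WT and those without Pyy 14306. Their median doublet scores were 0.0234 and 0.0245. Depth differed more among the Nts-high cells of WT. Those with Gcg had a median of 14363.5 UMIs and those without it 3876. Split by Pyy, the medians were 14499 and 5371 UMIs. For the other library's Nts-high cells the gaps were smaller, at 19228 against 17168 UMIs by Gcg and 19937 against 16636 by Pyy. Their median doublet scores were 0.0347 when Pyy-high and 0.0284 otherwise, and 0.0293 on both sides of the Gcg split. Over all combinations the depth was greater with more hormones, since cells high for 0, 1, 2 and 3 of them had medians of 12154, 12604, 13591 and 15860 UMIs in WT and 14632, 17167, 18102 and 18673 UMIs in the library labelled NFKO. The median doublet score was 0.0342 in cells high for 3 hormones in the library labelled NFKO and 0.0256 in those high for 1. The part of depth and doublets in the combinations was not tested.

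All 8 Insl5-high enteroendocrine-like cells lay in cluster 7 and were high for Gcg and Pyy, and none was Nts-high. The library labelled NFKO had 1 further Insl5-high cell, in cluster 13. The WT cells had 27 and 19 Insl5 UMIs, with Gcg at 112445 and 162152 CPM. Those of the library labelled NFKO had 131, 118, 106, 26, 18 and 16 Insl5 UMIs, with Gcg between 57106 and 139021 CPM. Every one of the 8 had a Gcg level above the median of the Gcg-high cells of its library, and their Nts counts were at most 12 UMIs.

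One hormone usually prevailed within a cell. Gcg was the most abundant of the 4 in 184 of the 307 WT cells (59.9%) and in 215 of the 551 cells of the library labelled NFKO (39.0%). Pyy prevailed in 49 (16.0%) and 156 (28.3%) cells, Nts in 74 (24.1%) and 180 (32.7%), and Insl5 in none. The prevailing hormone made up a median of 92.6% of the 4 hormones' UMIs in Gcg cells, 90.3% in Pyy cells and 98.4% in Nts cells of WT, and 92.9%, 92.0% and 99.1% in the library labelled NFKO. These medians include the cells high for 1 hormone alone, 137 of the 307 and 316 of the 551.

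Across enteroendocrine-like cells, the correlation of Gcg with Pyy, on the scale of ln(1 + UMIs per 10000), was 0.669 over 887 WT cells and 0.430 over 1889 cells of the library labelled NFKO. Gcg and Nts had 0.105 and 0.120. Among the cells high for either of them it was -0.68 over 288 WT cells and -0.71 over 445 cells of the other library, since a choice of cells high for either fixes part of such a value. Within the cells high for both Gcg and Pyy no relation of the amounts was seen, with 0.0228 over 132 and 0.00191 over 137 cells. These are descriptions over cells that share a library and differ in depth.

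**Figure D3:**
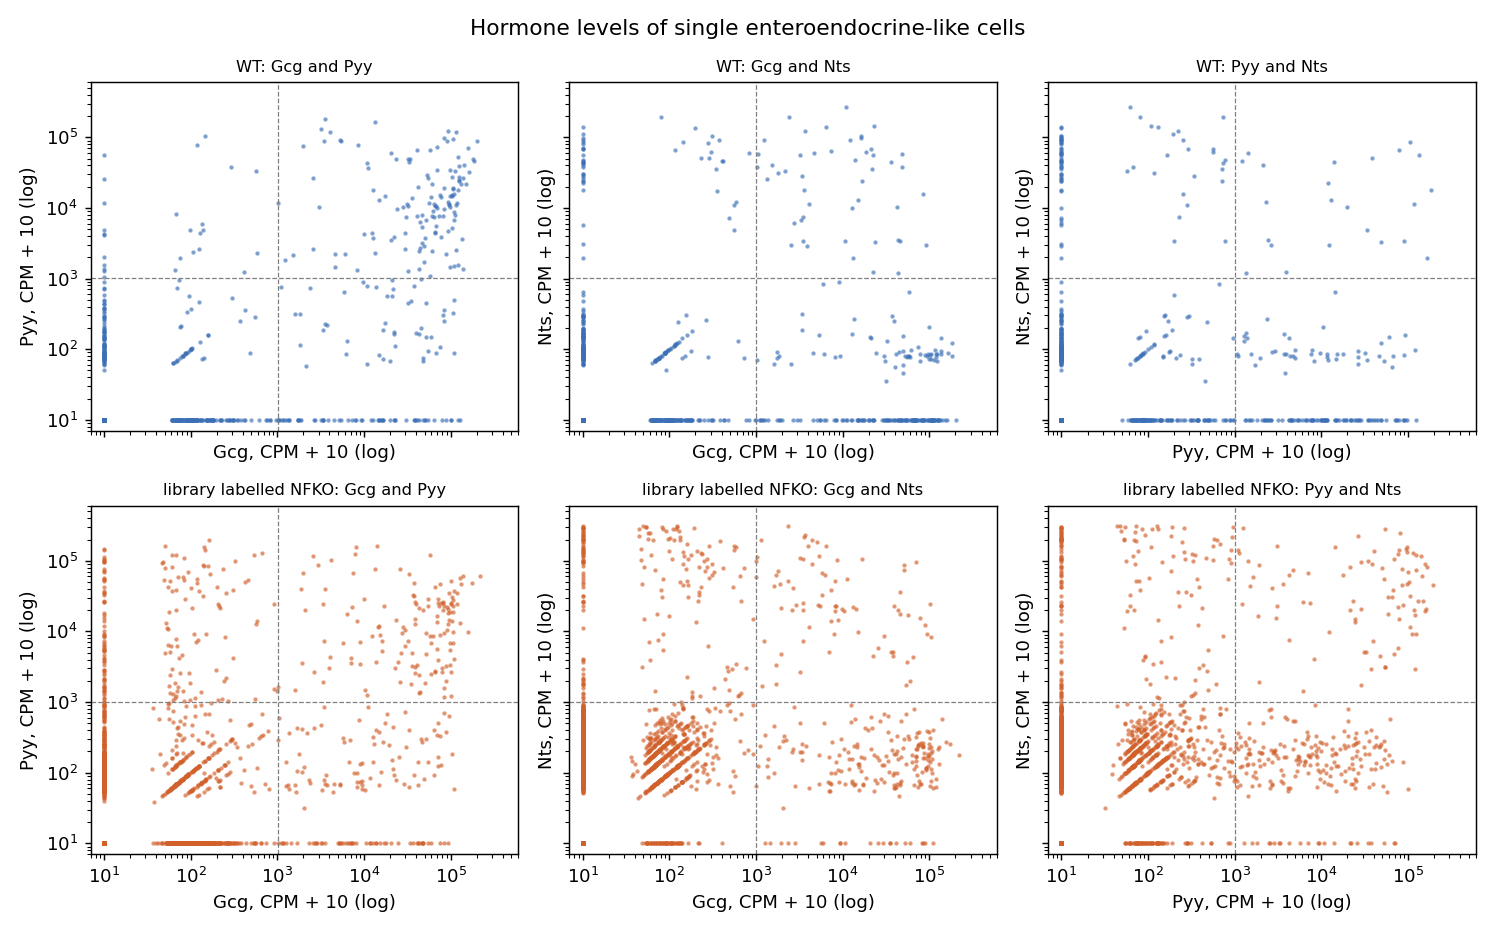
Levels of 2 hormones at a time in single enteroendocrine-like cells, each point a cell, with 10 CPM added and both axes logarithmic. The upper row is WT and the lower row the library labelled NFKO, and dashed lines mark the threshold of 1000 CPM. In the lower row most cells carry some Nts below the threshold, and cells at the upper left of the Gcg and Pyy panel, high for Pyy alone, are more numerous than in WT.

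Most L and N cell hormone cells carried transcripts of other gut hormones as well. Gcg-high cells were, in 98.3% of WT cases and 96.8% of those of the other library, also high for Cck, cholecystokinin, against 25.7% and 30.7% of the other enteroendocrine-like cells. For Ghrl, ghrelin, it was 47.3% and 56.1%, against 21.1% and 23.4% of the others. Only 10.8% were high for Gip, the hormone of K cells, in either library, beside 19.8% and 28.9% of the others. For Sst, somatostatin, 0 of 241 in WT and 3 of 278 in the other library were high, beside 5.88% and 6.58% of the others. Pyy-high cells of the library labelled NFKO were high for Gip in 28.5% (23.5% to 34.0%) of cases, near the 25.8% of its other enteroendocrine-like cells. In WT it was 14.0% (8.99% to 20.4%), beside 18.1% of the others. For Sst they were high in 11.7% (8.32% to 16.0%) of cases, beside 4.65% of the others, and in WT in 2.55% (0.698% to 6.39%), beside 4.66%. Cck went with 76.8% of them, against 94.3% in WT. Nts-high cells were Cck-high in 64.2% of WT cases and 67.4% of those of the other library, beside 43.2% and 36.5% of the other enteroendocrine-like cells.

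Genes with levels most like the members' across enteroendocrine-like cells were ranked among 9047 genes by the lower of the 2 libraries' correlations. For Gcg these were Etv1 (0.661), Cck (0.601), the G protein subunit Gnai1 (0.583), the fatty acid receptor Ffar1 (0.554) and the ubiquitin ligase Rnf130 (0.543). For Pyy they were the peptidase Naaladl1 (0.532), the protease Bace2 (0.485), Etv1 (0.444), Gcg (0.430) and Ffar1 (0.426). Etv1 and Ffar1 stood in both lists. For Insl5 they were the posterior homeobox genes Hoxb9 (0.319) and Hoxb8 (0.268), then Gcg (0.233), Fap (0.209) and Etv1 (0.194). Fap is annotated 17292 bases from Gcg on the same strand of chromosome 2. For Nts they were Adgrd1 (0.647), the phosphodiesterase Pde3a (0.597), Ms4a8a (0.467), the ectonucleotidase Nt5e (0.455) and the bombesin-family receptor Grpr (0.417), none of which appeared in the lists of the L-cell hormones.

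Hormone-high cells were then compared with the other enteroendocrine-like cells of their library, and a gene was counted when it differed at least 2-fold in the same direction in both libraries. Of 10536 genes, 1.43% were higher and 3.18% lower in Gcg-high cells, 0.892% higher and 2.38% lower in Pyy-high cells, and 1.96% higher and 4.63% lower in Nts-high cells. Of the receptors and nutrient inputs list, 12 of 17 genes had enough UMIs, and 5 of them were higher in Gcg-high cells and none lower. They were the fatty acid receptors Ffar1 (6.05-fold in WT and 3.79-fold in the library labelled NFKO) and Ffar3 (5.90 and 4.19), the lipid amide receptor Gpr119 (7.30 and 3.60), the bile acid receptor Gpbar1 (3.37 and 3.25) and the somatostatin receptor Sstr5 (2.53 and 2.21). In Pyy-high cells 4 of the 12 were higher, and in Nts-high cells 3 were higher and 2 lower. Gpr119 was 4.85-fold and 3.65-fold in Pyy-high cells but 0.79-fold and 0.95-fold in Nts-high cells.

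Of the 19 transcription factors, 2 were higher and 6 lower in Gcg-high cells. Etv1 was 8.33-fold in WT and 6.34-fold in the library labelled NFKO, and Onecut3 7.07-fold and 3.55-fold. Lmx1a, a factor of serotonin-producing cells, and Neurog3 itself were among the lower, at 0.05-fold or less in both libraries. In Nts-high cells the same 2 factors were higher, Etv1 at 2.47-fold and 2.61-fold and Onecut3 at 6.12-fold and 3.70-fold, and 9 were lower. Isl1, Rfx3, Rfx6, Foxa2 and Nkx2-2 were among those 9, each between 0.20-fold and 0.40-fold. The median gene lay at -0.41 (log2) in Nts-high cells and at -0.15 in Gcg-high cells, beside which these values are to be read.

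The BMP response list holds targets and inhibitors of BMP signalling, which is known to vary along the crypt to villus axis. All 5 of its genes had enough UMIs. By the 2-fold rule 3 of them were higher in Nts-high cells and none in Gcg-high or Pyy-high cells, a difference that was not tested. Id1 was 2.39-fold in WT and 2.29-fold in the library labelled NFKO, Smad6 5.30-fold and 2.26-fold, and Smad7 2.70-fold and 2.71-fold, while Id2 (1.98 and 2.30) and Id3 (1.43 and 1.98) missed the 2-fold limit in at least 1 library. When cells with Nts and without Gcg (47 from WT, 167 from the other library) were set against cells with Gcg and without Nts (193 and 203), 0.913% of 7226 genes were higher and 3.31% lower, and 4 genes of the list were measured. Smad7 was the 1 that was higher, at 4.49-fold and 6.36-fold. Of the transcription factors 6 of 15 were lower in the cells with Nts and none higher, among them Pax6 (0.46 and 0.45) and Etv1 (0.47 and 0.47), beside a median of -0.57 (log2) over all genes. The WT cells with Nts and without the other hormones had a median of only 3690 UMIs.

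Among the processing and granule genes, the neuropeptide precursor Scg2 was 6.04-fold and 2.82-fold in Gcg-high cells, 4.05-fold and 2.45-fold in Pyy-high cells and 2.68-fold and 3.04-fold in Nts-high cells. Chga and Chgb, the chromogranins, were below 0.5-fold in all 3. They were the 2 lower of 9 genes measured in each case, and Pcsk1, the convertase that yields GLP-1, lay between 0.68-fold and 0.92-fold throughout. Pcsk2 was at 1.56 and 5.54 CPM in the enteroendocrine-like cells and had too few UMIs to be compared. The counts that follow stand beside shares over all 10536 genes of 1.43% higher and 3.18% lower in Gcg-high cells. In Pyy-high cells these shares were 0.892% and 2.38%, and in Nts-high cells 1.96% and 4.63%. Of the other hormones, 1 of 8 was higher and 5 lower in Gcg-high cells, 1 higher and 2 lower in Pyy-high cells, and 2 higher and 5 lower in Nts-high cells. Of the transcription factors 1 was higher and 3 lower in Pyy-high cells. Of the regional list, 8 of 9 genes were measured, with 2 higher in Gcg-high, 3 higher and 1 lower in Pyy-high and 1 higher and 1 lower in Nts-high cells. Hoxb8 and Hoxb9 were 2.75-fold to 8.73-fold in Pyy-high cells. Of the 13 receptors and peptidases for the 4 hormones only 4 could be compared, and none was higher in hormone-high cells, while 2 were lower in Gcg-high, 1 in Pyy-high and 2 in Nts-high cells.

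Transcripts of the pancreas were searched for, since the intestine had been dissected from it. None of the 5 acinar markers had a UMI in WT enteroendocrine-like cells, and 2 of 5 did in the library labelled NFKO, at 0.310 CPM together. Ins1 had 0 UMIs in both libraries, and Ins2 had none in WT. Over all kept cells of the library labelled NFKO there were 26 Ins2 UMIs in 25 cells, at most 2 in a cell. Of these, 5 lay in enteroendocrine-like cells and the others in cells of other classes. Ppy, which encodes pancreatic polypeptide and lies 5356 bases from Pyy, had 1 UMI in WT enteroendocrine-like cells and 1293 in the library labelled NFKO. There, 7 cells had at least 5 Ppy UMIs, the top 2 held 71.2% of them, and all 7 were Pyy-high and Nts-high, with 6 in cluster 19.

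Hormone transcripts were also counted in other classes of cells. Goblet-like, Paneth-like and enterocyte-like cells together numbered 1355 for WT, against 2165 for the other library. Gcg was at 18.1 CPM (16.9 to 19.4) there in WT, 0.118% of its enteroendocrine-like level, and at 41.7 CPM (40.03 to 43.5), 0.657%, in the library labelled NFKO. Pyy was at 6.64 CPM (0.121%) and 73.8 CPM (1.23%), and Nts at 20.7 CPM (0.440%) and 184 CPM (1.34%). The background was higher in the library labelled NFKO for all 3. In the background cells that were high for none of the hormones, Pyy was at 6.59 and 23.6 CPM, Gcg at 16.3 and 28.0 CPM and Nts at 14.2 and 125.8 CPM, so that Nts differed most there and the gap in Pyy was smaller than over all background cells. Insl5 had 2 and 7 UMIs in these cells, or 0.0433 and 0.132 CPM.

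**Figure D4:**
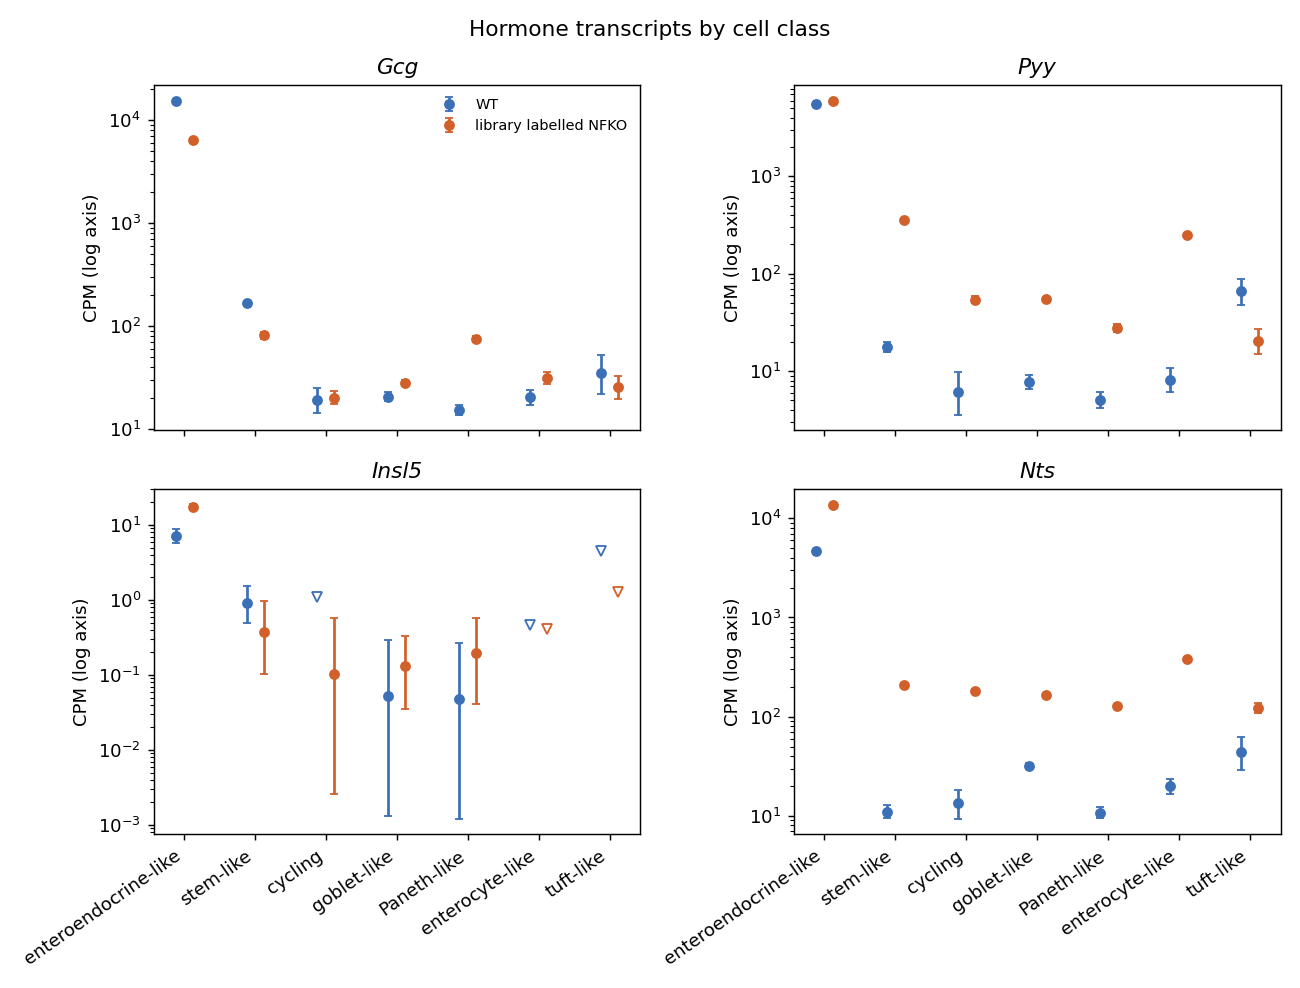
Levels of the 4 hormone transcripts by cell class, in CPM on a log axis. Points are sums over the cells of a class in 1 library, bars are 95% Poisson intervals and open triangles mark the limit that a count of 0 allows. In the named classes other than enteroendocrine-like, Nts lay between 10.8 and 43.6 CPM in WT and between 122 and 382 CPM in the library labelled NFKO.

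Cells high for any hormone were then left out, so that the background could be compared between classes. Nts was at 124.9 CPM in goblet-like, 123.8 in Paneth-like, 133.7 in enterocyte-like and 122 in tuft-like cells of the library labelled NFKO, and lower, at 89.0 and 91.4 CPM, in stem-like and cycling cells. In WT it was at 16.4 CPM in goblet-like, 10.54 in Paneth-like, 19.8 in enterocyte-like and 44.3 in tuft-like cells, the last resting on 87 cells. The makeup of the summed Gcg, Pyy and Nts UMIs was compared too. In the library labelled NFKO, Nts gave 71.9%, 69.1%, 70.5% and 72.8% of them in the 4 classes named first and Gcg 15.1% to 16.1%. In WT, Nts gave 34.4% to 48.3% and Gcg 38.3% to 49.3%. Between libraries the makeup differed more than between these classes, and in both libraries Nts had a larger share of it than among the enteroendocrine-like cells themselves. Over all of those, the high ones included, it gave 18.4% in WT, against 52.7% in the library labelled NFKO. Among those high for none it gave 29.7% and 60.9%.

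**Figure D5:**
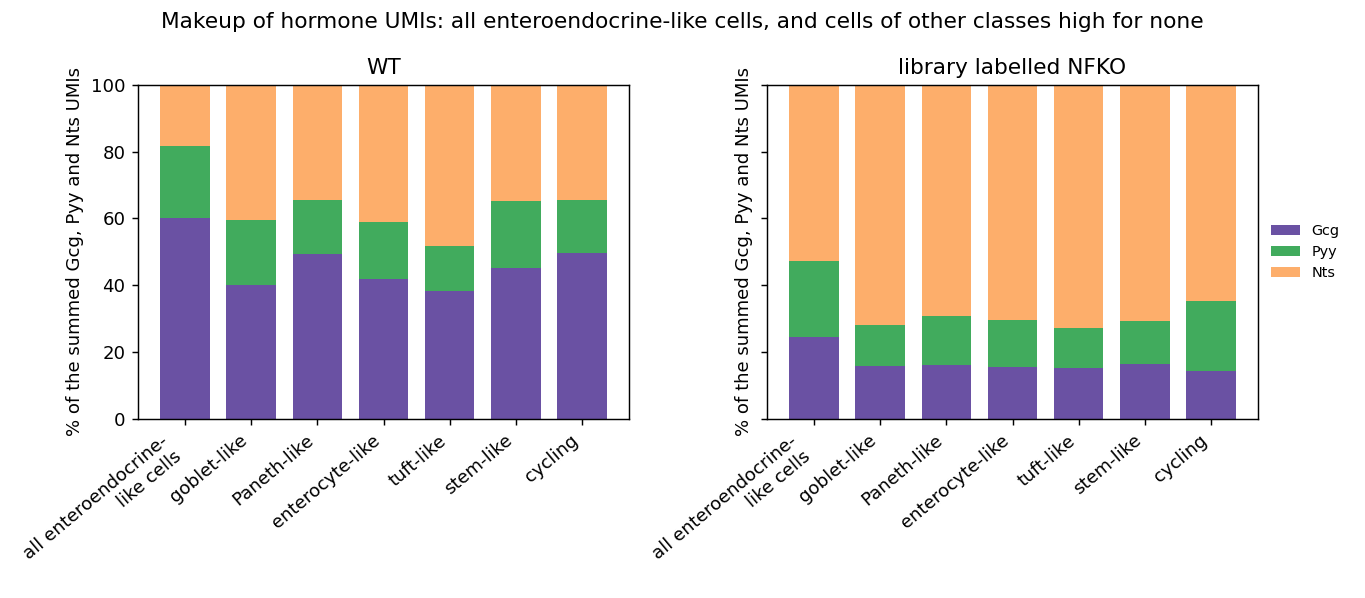
Makeup of the summed Gcg, Pyy and Nts UMIs, in percent, in all enteroendocrine-like cells (left bar of each panel) and in the cells of other classes that were high for none of the hormones. The left panel is WT and the right panel the library labelled NFKO. In the named classes other than enteroendocrine-like, Nts gave 34.4% to 48.3% in WT and 64.8% to 72.8% in the library labelled NFKO.

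Detection of single UMIs was compared at an equal depth. At 2000 UMIs per cell, Nts was detected in 15.8% of WT enteroendocrine-like cells (median depth before thinning 12507 UMIs) and 5.56% of the WT background cells (25843 UMIs), but in 37.9% and 33.1% in the library labelled NFKO (15448 and 22614 UMIs). A single Nts UMI in that library was therefore close to background. Gcg was detected in 32.3% against 6.00% in WT and in 23.3% against 9.53% in the library labelled NFKO, and Pyy in 23.7% against 2.37% and 25.6% against 9.77%. In enteroendocrine-like cells high for none of the hormones, Nts stood at 28.2 CPM in WT and 169 CPM in the library labelled NFKO, against the 14.2 and 125.8 CPM of the background cells.

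Some cells of other classes nevertheless met the threshold. Among the background cells 3 of 1355 in WT and 90 of 2165 (4.16%) in the library labelled NFKO were Nts-high, while for Gcg it was 2 and 1 and for Pyy 0 and 14. Of the 90, 66 had only 5 to 9 Nts UMIs and the median depth was 3991 UMIs, so that most were shallow cells with few Nts UMIs. The 14 Pyy-high background cells of the library labelled NFKO were unlike these, with a median of 64.5 Pyy UMIs and 12536 CPM. Their 8 pan-endocrine markers summed to 1620 CPM, against 183 CPM in the background cells that were not Pyy-high and 11545 CPM in Pyy-high enteroendocrine-like cells. In the stem-like cluster of that library 12 of 209 cells were Pyy-high, with a median of 216.5 UMIs of Pyy and markers at 1444 CPM, against 377 CPM in the rest of the cluster. The 303 stem-like cells of WT that were not Pyy-high had these markers at 1473.5 CPM, so such a marker level was not particular to Pyy-high cells. The part of mixed droplets and of free RNA in the hormone-high cells of other classes was not tested.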

How the data were processed

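Tomato-positive intestinal cells of 2 libraries, 1 per group, were measured by 10x 3′ single-cell RNA-seq. Deposited values are raw UMI counts per gene and barcode, which the authors made with Cell Ranger 5.0.1 against mm10, per the submitters' processing notes. Barcodes (5051 and 7540) needed a minimum of 500 genes and 1000 UMIs, with mitochondrial transcripts no more than 25%. Scrublet's own threshold marked 3 and 0 barcodes, so the top-scoring 126 and 340 (0.8% per 1000 deposited barcodes) were removed as doublets. The libraries were clustered together in Seurat 5.3.0 (R 4.3.3; 2000 variable genes, 30 principal components, 20 neighbours, resolution 0.8), leaving out 13 genes, among them the 4 members. Classes were named from at least 3 markers. Sums, exact Poisson and Clopper-Pearson intervals and thinning (2000 or 5000 UMIs, which left out 32 and 335 or 417 and 896 cells) used Python 3.11.15, numpy 2.4.6, scipy 1.17.1 and scanpy 1.11.5. Genes were named as the 4 members, the 5 genes most like each of them, and genes of the lists with at least 100 UMIs; the calls on lists needed 1.5-fold between libraries, or 2-fold in both libraries between hormone-high and other cells. The scripts were tested on simulated data. The members and lists were chosen with earlier results of these data known. With 1 library of pooled mice per group, no p-value was computed.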

Additional observations from a re-analysis of the deposited data

Results flagged for a closer look

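Barcodes that the filters removed took no part in the comparisons, and some of them were hormone-high. In WT, 9 were Gcg-high, 14 Pyy-high and 24 Nts-high, of 1922 removed barcodes. In the library labelled NFKO, 55 were Gcg-high, 58 Pyy-high and 104 Nts-high, of 1908. These were 0.468%, 0.728% and 1.25% of the removed barcodes in WT and 2.88%, 3.04% and 5.45% in the library labelled NFKO, against 8.52%, 6.23% and 3.56% of the kept cells in WT and 5.80%, 7.24% and 7.16% in the other library. Among the 126 and 340 barcodes removed as doublets, 22 and 36 were Gcg-high (17.5% and 10.6%), 16 and 67 Pyy-high (12.7% and 19.7%) and 8 and 50 Nts-high (6.35% and 14.7%).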

How the results depend on the processing

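No paired analysis was possible because each group has 1 library, and no replicate could be left out. Of the level and share ratios, the Pyy level ratio was the 1 that crossed 1, under 2 settings (0.998 and 0.629 below). Ratios of the library labelled NFKO to WT are given in the order Gcg, Pyy and Nts unless named. Against main values of 0.414, 1.09 and 2.92, the level ratios were 0.175, 1.05 and 5.50 in male-typed cells, 0.430, 0.998 and 2.17 with the same weight per cell, 0.426, 1.12 and 3.01 with median-of-ratios size factors, 0.454, 1.23 and 3.25 in cells chosen by their own marker UMIs, 0.419, 1.14 and 2.84 with no doublet removal and 0.419, 1.17 and 2.95 over every deposited barcode. A stricter cell filter gave 0.408 for Gcg and 3.06 for Nts, and leaving out the 3 top cells of each library gave 1.15 for Pyy, 1.81 for Insl5 and 3.50 for Nts. Of the settings chosen after seeing the data, cluster 13 counted in gave 0.433, 1.13 and 3.03, and leaving out clusters 18 and 19 gave 0.411, 0.629 and 2.88, a Pyy-high share ratio of 0.719, and medians in the library labelled NFKO of 6969 CPM for Pyy and 78786 CPM for Nts. The high-share ratio in male-typed cells was 0.313 for Gcg and 1.89 for Nts, and that of Nts was 1.98 at 300 CPM and 1.66 after thinning to 5000 UMIs. Gcg-high cells were Pyy-high in 61.4% of WT cases with the 99th percentile of background as threshold, and in 56.1% of cases in the library labelled NFKO at 300 CPM. Nts-high cells were Gcg-high in WT in 68.8% of male-typed cases, 37.5% at 3000 CPM and 75.4% after thinning, and in 16.7% of male-typed cases in the library labelled NFKO. The Pyy median of WT was 7827 CPM at 300 CPM, 14787 at 3000 CPM and 7725 with the percentile threshold. In the library labelled NFKO, the Gcg median was 15480 CPM in male-typed cells and 34178 at 3000 CPM, the Pyy median 6251 at 300 CPM and 22016 at 3000 CPM, and the Nts median 3518 at 300 CPM. The Nts median of WT at 300 CPM was 38337 CPM. The background level as a percentage of the enteroendocrine-like level, WT first, was 0.101 and 0.433 for Gcg and 0.289 and 0.975 for Nts without the top 1% of background cells, with 0.390 for Pyy in the library labelled NFKO. With no doublet removal it was 0.274 and 0.825 for Gcg, 0.208 and 1.93 for Pyy and 0.501 and 2.43 for Nts. The cause of these shifts was not tested. The other 109 recomputed main values moved by less than counting error. Depth limits Insl5 most, with 78 UMIs in WT enteroendocrine-like cells, and the WT cells of cluster 20.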
